A study of Mus musculus with 43 samples.

Results

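The RNA response to high oxygen was compared between alveolar macrophages (AM) and Ly6Clo monocytes/macrophages sorted from newborn C57BL/6 mouse lungs. Of the 43 libraries of the series, the 21 labelled as AM or Ly6Clo were taken, 11 of AM and 10 of Ly6Clo. Pups of litters 93, 100 and 108 had been found within 6 hours of birth, mixed and allotted at random to hyperoxia, with a fraction of inspired oxygen of 0.9, or to normoxia, and their lungs were taken after 1.5 days. AM had been gated on high SiglecF and high CD11c, and Ly6Clo cells on low Ly6C and high CD11c. The groups held 6 libraries of AM in normoxia, 5 of AM in hyperoxia, 5 of Ly6Clo in normoxia and 5 of Ly6Clo in hyperoxia, all from animals with no labelled transgene or mutation. In each hyperoxic group replicates 1 and 2 came from litter 93, replicate 3 from litter 100 and replicates 4 and 5 from litter 108. The labels name neither the pup nor the number of pups behind a library.

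Alveolar macrophages settle in the air spaces around birth, where they take up surfactant and inhaled particles and meet oxygen directly. Ly6Clo mononuclear cells of the lung include patrolling, non-classical monocytes and macrophages of the interstitium. Excess oxygen raises reactive oxygen species in lung cells. In textbook outline, oxidants release the transcription factor NRF2 from its inhibitor KEAP1, and NRF2 then binds antioxidant response elements in the promoters of glutathione, thioredoxin and haem-catabolic genes, while DNA damage stabilises p53, which induces the cell cycle inhibitor Cdkn1a and its own ubiquitin ligase Mdm2.

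Library totals ranged from 551960 to 1963284 counts, and 5 of the 21 libraries, 4 of them AM, held fewer than 1000000. These were AM hyperoxia replicates 1, 2 and 3, Ly6Clo hyperoxia replicate 3 and AM normoxia replicate 3. Low totals thus lay mostly in hyperoxia, and depth and oxygen partly go together. Median totals were 1279070 in AM normoxia and 849561 in AM hyperoxia, and 1398948 and 1258218 in Ly6Clo. Genes with at least 1 count numbered 13599 to 15080 in AM normoxia, 13306 to 14589 in AM hyperoxia, 14308 to 15717 in Ly6Clo normoxia and 13532 to 15467 in Ly6Clo hyperoxia. Markers differed in level between the labelled populations. Siglecf, in TMM-scaled counts for a library of 1000000 (CPM), stood at 74.8 to 165 in normoxic AM against 9.21 to 31.2 in normoxic Ly6Clo. A list of 22 measured AM markers averaged 7.84 to 8.15 against 6.81 to 7.18 log2 CPM. Interstitial macrophage markers lay the other way, at 3.70 to 4.68 in normoxic AM and 6.33 to 7.90 in normoxic Ly6Clo. The AM markers were far from absent in Ly6Clo. Their summed level was 5353 to 7314 CPM in normoxic Ly6Clo, against 8452 to 10059 CPM in normoxic AM. Counts of the most abundant transcripts may be compressed, so these sums may understate the contrast between the populations. The part of AM marker RNA of the Ly6Clo libraries in the shared effects or in the difference was not tested. Replicates here are libraries, and the p-values measure the spread between them that is left after an additive litter term. That spread includes differences of the oxygen effect between litters.

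The first question was whether the same oxygen exposure moved the same genes in both populations. Tested as the mean of the AM and Ly6Clo effects by edgeR's quasi-likelihood test with Benjamini-Hochberg adjustment, 67 of 11025 genes were called at an adjusted p under 0.05 (0.608% of those tested), 46 higher (0.417%) and 21 lower (0.19%) in hyperoxia. Among them the ubiquitin ligase Rnf128, 7 antioxidant genes of the NRF2 pathway and 4 targets of p53 rose, and 6 DNA replication and 2 mitosis genes fell. No single gene passed the test of a difference between the populations. In the contrast of the AM effect minus the Ly6Clo effect the same fit called 0 of 11025 genes, 0% of those tested, and the smallest adjusted p was 0.9998. At an unadjusted p under 0.05 that contrast held 349 genes, 3.17% of those tested, and DESeq2 and limma voom called 0 as well. Taken singly, 13 genes were called in AM (0.118%) and 1 in Ly6Clo (0.00907%), and all 13 had the same sign in Ly6Clo.

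The precision of the contrast bounds what 0 calls can show. The median standard error of the difference was 0.37 on the log2 scale, against 0.26 for the AM effect and 0.27 for the Ly6Clo effect. The 95% interval of the difference lay within ±1 for 5313 genes (48.2%), so a difference of 2-fold or more was outside the interval for those genes. Of the 67 genes called in the mean, 37 had such an interval.

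Effects were alike in sign beyond the called genes. Across the 11025 genes, Pearson's r between the AM and Ly6Clo log2 fold changes was 0.376 and Spearman's coefficient 0.355, as a description across genes, which are not independent replicates. Over the 6890 genes above a mean of 5 log2 CPM, r was 0.525. The share with the same sign over all genes tested was 62.9%. Of the 1133 genes at an unadjusted p under 0.05 in AM (10.3% of those tested), 917 had the same sign in Ly6Clo (80.9%). Of the 713 such genes in Ly6Clo (6.47%), 597 had the same sign in AM (83.7%). The genes at that level in both with the same sign numbered 232, which is 20.5% of the AM genes and 32.5% of the Ly6Clo genes. Litters were shared by both populations, and the labels do not say whether pups were.

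**Figure D1:**
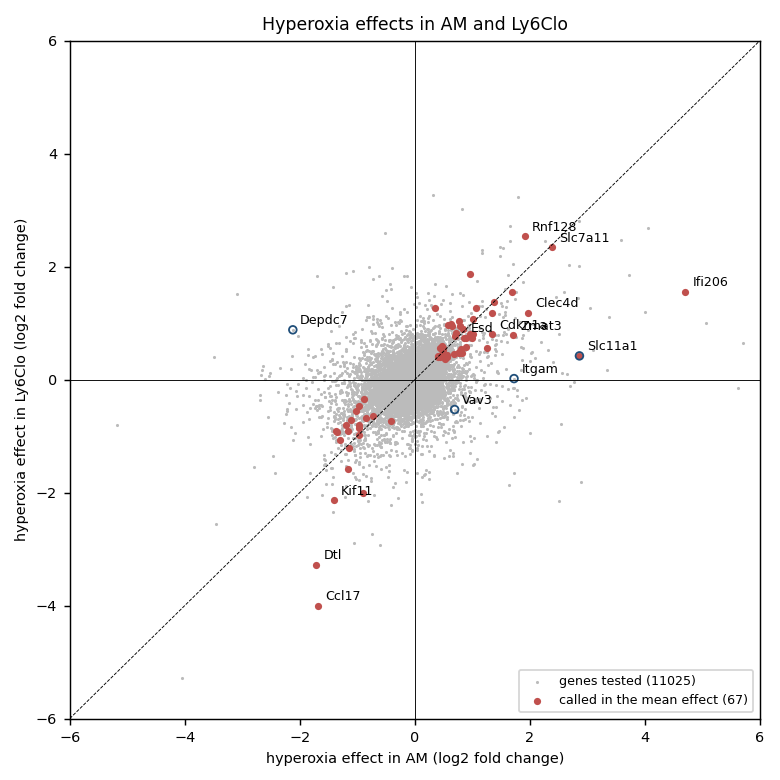
Log2 fold change in hyperoxia against normoxia of each of the 11025 genes tested, in AM on the x axis and in Ly6Clo on the y axis, with the genes called in the mean effect marked. All 67 called genes lie in the quadrants where both effects have the same sign.

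The 67 genes called in the mean effect had the same sign in both populations without exception, a direction that the choice of these genes favours. The fitted size was larger in AM for 40 and in Ly6Clo for 27, with median sizes of 0.89 and 0.80 on the log2 scale. Of the 66 with a symbol, 59 kept 1 sign in all 6 effects computed within a litter and a population. The choice of these genes on the same libraries favours that too, and the share over all genes tested was not computed. The hyperoxic and normoxic libraries did not overlap for 22 of the 66 in AM, for 13 in Ly6Clo and for 8 in both. Over all genes tested the groups did not overlap for 102 in AM (0.925%), for 79 in Ly6Clo (0.717%) and for 8 in both (0.0726%). The call list rested on few libraries. It fell to 7 genes without hyperoxia replicates 3 and 5 of both populations, which carried high interferon gamma genes and were left out after seeing the data, to 2 with the number of genes detected as a covariate and to 0 without the 5 libraries under 1000000 counts. In each of these fits all 67 kept their sign, which the choice of these genes on the same libraries favours. The 5 small libraries were mostly hyperoxic, and the part of depth in the calls was not tested. The 7 genes still called without the 4 libraries were Rnf128, Cdkn1a, Esd, Creg1, Blvrb, Clec4d and Gclm, and every other gene named below as called in the mean effect missed the threshold there.

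Rnf128, which encodes the E3 ubiquitin ligase GRAIL, known from anergic T cells, had the smallest p in the mean effect. In AM it stood at 13.3 to 37.8 (median 25.6) CPM in normoxia and at 71.3, 83.9, 118, 57.5 and 108 CPM in hyperoxia. In Ly6Clo it stood at 9.21, 7.16, 12.9, 10.2 and 10.4 CPM in normoxia and at 39.4, 28.0, 49.4, 45.5 and 129 CPM in hyperoxia. Every hyperoxic library lay above every normoxic library of its population, and Ly6Clo hyperoxia replicate 5 stood apart at the top. It rose 3.76-fold in AM (log2 fold change 1.91 ± 0.30 SE, edgeR quasi-likelihood adjusted p = 0.00443) and 5.81-fold in Ly6Clo (2.54 ± 0.35, adjusted p = 0.00185), where it was the only gene called. The difference between the 2 effects was -0.63 with a 95% interval of -1.56 to 0.30, which includes 0. With the number of genes detected as a covariate it was 1 of the 2 genes still called in the mean effect, beside Cdkn1a.

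Antioxidant genes were the largest called group among the lists. Of 29 measured NRF2 targets, 7 rose in the mean effect and 0 fell, against 0.417% and 0.19% of all genes tested. This list, which includes Esd and Blvrb, and the other lists were written with earlier results of these data known. Their shares of called genes are thus a description and no test. Of the 29 estimates, 27 lay above 0. The median was 0.43 on the log2 scale against -0.02 over all genes tested, 0.54 in AM and 0.37 in Ly6Clo. Averaged over the list, log2 CPM ran at 6.37 to 6.65 in AM normoxia and 7.13 to 7.28 in AM hyperoxia, and 6.38 to 6.60 in Ly6Clo normoxia and 6.74 to 7.14 in Ly6Clo hyperoxia. The hyperoxic and normoxic libraries did not overlap in either population. Without the 4 hyperoxic libraries high in interferon gamma genes the median was 0.40, with 28 of 29 estimates above 0.

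The core of the antioxidant response element, TGACNNNGC or its reverse complement GCNNNGTCA on either strand, was looked for in the promoters of these genes, from 250 bases before to 50 after the start site. It was present in 9 of the 23 list genes with a RefSeq promoter (39.1%), in 13 of 38 genes called higher (34.2%), in 2 of 14 called lower (14.3%), in 1428 of 8252 genes tested (17.3%) and in 4071 of 32851 promoters in all (12.4%). The genes called higher include list genes with the core, so those 2 shares are not separate. The last share counts promoters, and the others count genes with the core in any of their promoters. A match of letters is a description and no measured binding. Pgd, of the same list, rose and carries the core 3 bases after its start site, and is not shown. The promoters of Gclm, which encodes the modifier subunit of the glutathione-synthesising ligase, of Txnrd1, thioredoxin reductase, and of Srxn1, sulfiredoxin, are shown as examples of genes that rose and carry the core. The sequences are from RefSeq in build GRCm38.p6, 5′ to 3′ on the gene's strand, which is the plus strand for each, with the match in capitals. The match begins 134 bases before the start site in Gclm (chr3:122245307-122245606), 92 before it in Txnrd1 (chr10:82858956-82859255) and 28 bases after it in Srxn1 (chr2:152105274-152105573).
Gclm: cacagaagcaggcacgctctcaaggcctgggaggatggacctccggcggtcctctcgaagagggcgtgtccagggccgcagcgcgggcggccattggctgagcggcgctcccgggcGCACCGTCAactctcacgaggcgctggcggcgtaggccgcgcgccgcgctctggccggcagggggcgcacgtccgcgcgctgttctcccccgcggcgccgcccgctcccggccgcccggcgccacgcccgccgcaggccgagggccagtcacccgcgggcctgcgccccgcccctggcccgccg
Txnrd1: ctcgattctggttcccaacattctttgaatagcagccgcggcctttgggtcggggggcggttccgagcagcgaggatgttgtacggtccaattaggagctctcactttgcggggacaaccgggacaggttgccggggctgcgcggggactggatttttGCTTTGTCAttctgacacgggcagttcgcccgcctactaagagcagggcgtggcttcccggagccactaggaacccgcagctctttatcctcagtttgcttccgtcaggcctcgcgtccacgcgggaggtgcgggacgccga
Srxn1: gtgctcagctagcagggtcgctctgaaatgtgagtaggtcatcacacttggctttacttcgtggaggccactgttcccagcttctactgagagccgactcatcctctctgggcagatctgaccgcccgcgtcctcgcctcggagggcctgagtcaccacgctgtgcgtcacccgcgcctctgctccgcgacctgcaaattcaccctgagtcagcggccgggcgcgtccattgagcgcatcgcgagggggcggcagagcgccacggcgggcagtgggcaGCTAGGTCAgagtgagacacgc

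Gclm stood at 74.3 to 108 (median 87.8) CPM in AM normoxia and at 161, 178, 132, 154 and 165 CPM in AM hyperoxia. The Ly6Clo level of Gclm was 69.4, 57.8, 71.5, 73.7 and 102 CPM in normoxia and 116, 109, 75.7, 132 and 126 CPM in hyperoxia. The groups did not overlap in AM, and in Ly6Clo hyperoxia replicate 3 lay among the normoxic libraries. Gclm rose 1.60-fold in the mean effect (edgeR quasi-likelihood adjusted p = 0.00675), by 0.81 ± 0.16 SE on the log2 scale in AM (adjusted p = 0.0356), with 0.55 ± 0.17 in Ly6Clo (adjusted p = 0.614). The difference was 0.26, with a 95% interval of -0.21 to 0.73.

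Txnrd1, which keeps thioredoxin reduced, stood at 98.2 to 179 (median 128) CPM in AM normoxia and at 199, 229.6, 304, 169 and 212 CPM in AM hyperoxia. Ly6Clo libraries held 102, 102, 106, 91.9 and 120.4 CPM in normoxia and 129.5, 142, 242, 161 and 249 CPM in hyperoxia. The Ly6Clo groups did not overlap, while in AM hyperoxia replicate 4 fell inside the normoxic range. The gene rose 1.71-fold in the mean effect (edgeR quasi-likelihood adjusted p = 0.00952), and the difference of -0.12 had an interval of -0.70 to 0.45. Without the 4 hyperoxic libraries high in interferon gamma genes Txnrd1 lost its call, at 0.48 against 0.77 on the log2 scale (adjusted p = 0.434). Srxn1, which restores oxidised peroxiredoxins, and Slc7a11, the cystine importer that supplies glutathione synthesis, were singled out after their values were seen. Srxn1 rose 1.87-fold (adjusted p = 0.0265), with 19.1 to 59.4 CPM in AM normoxia, 64.7 to 101 in AM hyperoxia, 30.3 to 50.4 in Ly6Clo normoxia and 47.5 to 117 in Ly6Clo hyperoxia. Slc7a11 rose 5.16-fold (adjusted p = 0.0178), with hyperoxic levels of 144, 233, 652, 243 and 517 CPM in AM and 123, 97.9, 683, 161 and 716 CPM in Ly6Clo. Its normoxic levels were 36.3 to 113 (median 64.5) CPM in AM and 41.1, 113, 67.2, 48.9 and 32.0 CPM in Ly6Clo, so replicates 3 and 5 of hyperoxia were the highest in both populations.

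Esd, esterase D, which releases glutathione from a formaldehyde adduct, was called in the mean effect and in AM. In AM it stood at 252 to 281 (median 265) CPM in normoxia and at 512, 472, 584, 396 and 424 CPM in hyperoxia. In Ly6Clo it stood at 200.1, 226, 181, 212 and 209 CPM in normoxia and at 268, 292, 485, 253 and 399 CPM in hyperoxia, and the groups did not overlap in either population. It rose 1.74-fold in the mean effect (edgeR quasi-likelihood adjusted p = 1.92e-04), and the difference between populations was 0.11, with an interval of -0.31 to 0.54.

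Blvrb, biliverdin reductase B, acts in haem breakdown and belongs to the NRF2 list too. Its AM levels were 108 to 190.3 (median 160.4) CPM in normoxia and 317, 363, 285, 266 and 309 CPM in hyperoxia. Its Ly6Clo levels were 213, 222, 203, 145 and 155 CPM in normoxia and 248, 261, 454, 262 and 321 CPM in hyperoxia. Neither population showed an overlap, with the largest Ly6Clo value in replicate 3. Blvrb rose 1.82-fold in the mean effect (adjusted p = 6.86e-04). Pgd, of the pentose phosphate pathway that supplies NADPH, rose 1.32-fold (adjusted p = 0.0394; singled out after its values were seen). Hmox1, haem oxygenase, missed the threshold, with a mean effect of 0.60 ± 0.15 SE and an adjusted p of 0.0582.

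**Figure D2:**
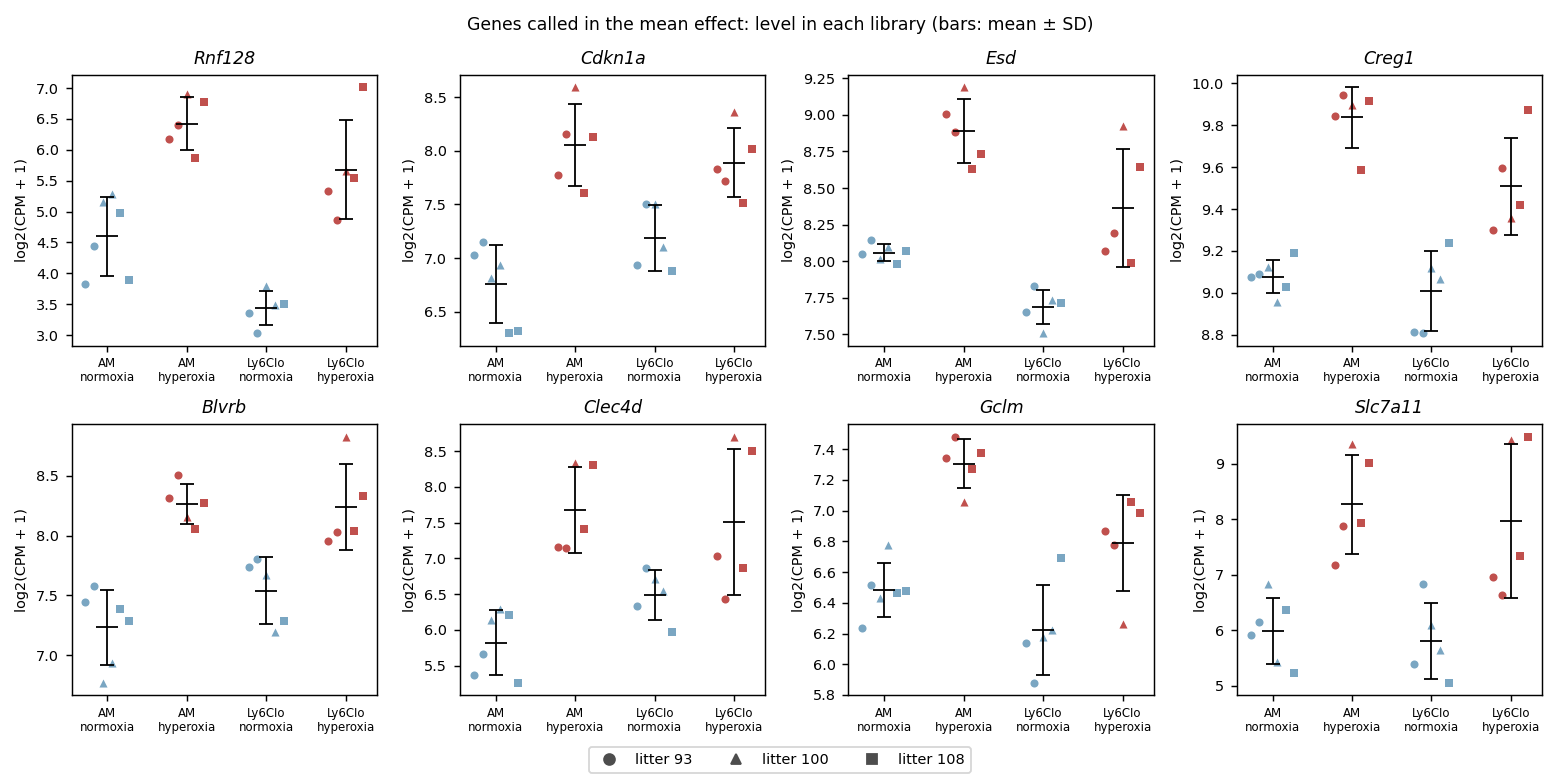
Levels of 8 genes called in the mean effect, as log2(CPM + 1) on the y axis, with 1 point for each library in the 4 groups of population and oxygen. Rnf128, Cdkn1a, Esd, Creg1 and Blvrb show no overlap of hyperoxia and normoxia in either population, while Clec4d, Gclm and Slc7a11 overlap in Ly6Clo.

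Nqo1, the quinone reductase often used as an NRF2 readout, had the smallest p of the list in the difference. It stood at 0 to 6.67 (median 2.54) CPM in AM normoxia and at 21.5, 18.5, 7.76, 43.1 and 14.2 CPM in AM hyperoxia. The Ly6Clo level of Nqo1 was 6.14, 3.85, 4.31, 13.1 and 1.73 CPM in normoxia and 3.22, 4.11, 1.65, 14.5 and 7.67 CPM in hyperoxia. The groups were apart in AM and overlapped in Ly6Clo. The difference was 2.81 ± 0.96 SE on the log2 scale (unadjusted p = 0.00760, edgeR quasi-likelihood adjusted p = 0.9998) and did not pass the test.

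Targets of p53 were looked at next. Of 26 measured, 4 rose in the mean effect and 0 fell, against 0.417% and 0.19% of all genes tested. The 4 were Cdkn1a, Zmat3, Mdm2 and Ccng1, and the same 4 rose in AM taken singly. The list's median was 0.14, with 16 of 26 estimates above 0, and the other 22 genes were not called. Cdkn1a, the p21 inhibitor of cyclin-dependent kinases, stood at 77.8 to 141 (median 116) CPM in AM normoxia and at 218, 284, 386, 194 and 279 CPM in AM hyperoxia. In Ly6Clo its levels were 122, 181, 181, 136 and 117 CPM in normoxia and 226, 209.8, 329, 182 and 258 CPM in hyperoxia. No hyperoxic library overlapped the normoxic ones of its population, though the lowest Ly6Clo pair nearly touched. Cdkn1a rose 2.55-fold in AM (edgeR quasi-likelihood adjusted p = 3.05e-04), with a 1.75-fold estimate in Ly6Clo (adjusted p = 0.228) and a mean of 2.11-fold (adjusted p = 2.94e-05). The difference of 0.54 ± 0.24 SE had an unadjusted p of 0.0326 and an adjusted p of 0.9998.

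Zmat3, a p53-induced RNA-binding protein, stood at 14.4 to 20.9 (median 19.2) CPM in AM normoxia and at 33.6, 38.3, 112, 80.8 and 54.5 CPM in AM hyperoxia. Ly6Clo libraries held 15.3, 15.4, 16.4, 18.2 and 22.5 CPM in normoxia and 29.0, 16.4, 46.1, 22.5 and 39.5 CPM in hyperoxia, with 2 hyperoxic libraries inside the normoxic range. It rose 2.38-fold in the mean effect (edgeR quasi-likelihood adjusted p = 0.00273), and the difference of 0.93 ± 0.39 SE had an unadjusted p of 0.0262. Mdm2, which marks p53 for degradation, rose 1.67-fold (adjusted p = 0.00448) and Ccng1, cyclin G1, 1.57-fold (adjusted p = 0.00952). Their differences of 0.30 and 0.34 had intervals of -0.19 to 0.80 and -0.13 to 0.81. Zmat3, Mdm2 and Ccng1 lost their call in the mean effect without the 4 hyperoxic libraries named above (adjusted p = 0.32, 0.347 and 0.0835), with estimates of 0.89, 0.50 and 0.60 against 1.25, 0.74 and 0.65 with all libraries. Cdkn1a kept its call, at 0.81 (adjusted p = 0.00805) against 1.08.

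Most cell cycle genes had estimates below 0 in both populations. Of 35 measured DNA replication and S phase genes, 6 fell in the mean effect and 0 rose, against 0.19% and 0.417% of all genes tested. Those that fell included Mcm2, Mcm4 and Mcm5 of the replicative helicase, Gins2 of its activating complex, and Dut of nucleotide supply. All 35 estimates lay below 0 in the mean effect, with a median of -0.67, and in AM, with a median of -0.92. In Ly6Clo 30 of 35 lay below 0, with a median of -0.50. Of 36 mitosis and G2/M genes, the motor Kif11 and the cyclin Ccna2 fell, all 36 mean estimates lay below 0, 35 of 36 did so in Ly6Clo, and the median of the mean effect was -0.94. In the difference 0 genes of either list were called, 33 of 35 S phase estimates lay below 0 with a median of -0.47, and the mitosis median was -0.10. Without AM hyperoxia replicate 5 the S phase median of the difference was -0.29. In bulk samples a smaller share of cycling cells and less RNA of these genes per cycling cell cannot be told apart.

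Library by library, the mean log2 CPM of the mitosis list was 5.49 to 6.44 in AM normoxia and 6.41, 6.03, 3.97, 4.54 and 4.03 in AM hyperoxia replicates 1 to 5. It was 5.07, 5.86, 3.17, 4.50 and 3.84 in Ly6Clo normoxia and 4.30, 3.59, 2.26, 4.07 and 3.46 in Ly6Clo hyperoxia. Both hyperoxic AM libraries of litter 93 were at the level of normoxic AM, and the 3 of litters 100 and 108 lay below all of them. The median of the difference moved from -0.10 to -1.25 without litter 93, to 0.70 without litter 108 and to 0.14 without Ly6Clo hyperoxia replicate 4, so the order of the 2 populations in mitosis genes rests on which litters and libraries are counted. Kif11 shows the same split by litter, with AM hyperoxia levels of 40.4, 35.8, 7.76, 17.1 and 9.29 CPM against 34.8 to 68.0 (median 49.1) in AM normoxia. Its Ly6Clo levels were 21.5, 31.4, 6.03, 24.8 and 9.53 CPM in normoxia and 3.22, 8.23, 3.29, 4.00 and 1.64 CPM in hyperoxia. Kif11 fell by 1.77 on the log2 scale in the mean effect (edgeR quasi-likelihood adjusted p = 0.00604), with a difference of 0.72 ± 0.59 SE. Dtl, of the ubiquitin ligase that limits replication licensing, fell by 2.49 (adjusted p = 0.0165), to 0 counts in 3 of the 5 hyperoxic Ly6Clo libraries.

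Among S phase genes Gins1, of the same complex as Gins2, had the smallest p in the difference. Its AM levels were 69.2 to 107 (median 95.3) CPM in normoxia and 88.8, 61.7, 13.6, 42.2 and 19.2 CPM in hyperoxia. Ly6Clo libraries held 37.5, 52.3, 9.47, 23.4 and 26.8 CPM in normoxia and 33.0, 28.8, 16.4, 32.5 and 32.3 CPM in hyperoxia, where the groups overlapped. The difference was -1.21 ± 0.42 SE (unadjusted p = 0.00871, edgeR quasi-likelihood adjusted p = 0.9998). Shmt2, the mitochondrial serine hydroxymethyltransferase that feeds one-carbon units to nucleotide synthesis, was the 1 gene that fell in AM. It stood at 50.5 to 71.5 (median 58.3) CPM in AM normoxia and at 37.7, 40.7, 23.3, 19.8 and 32.2 CPM in AM hyperoxia, without overlap, and had an AM effect of -1.02 ± 0.21 SE (adjusted p = 0.04996). In Ly6Clo its estimate was -0.55 ± 0.21 SE, with 29.3 to 76.0 CPM in normoxia and 26.3 to 44.0 CPM in hyperoxia.

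**Figure D3:**
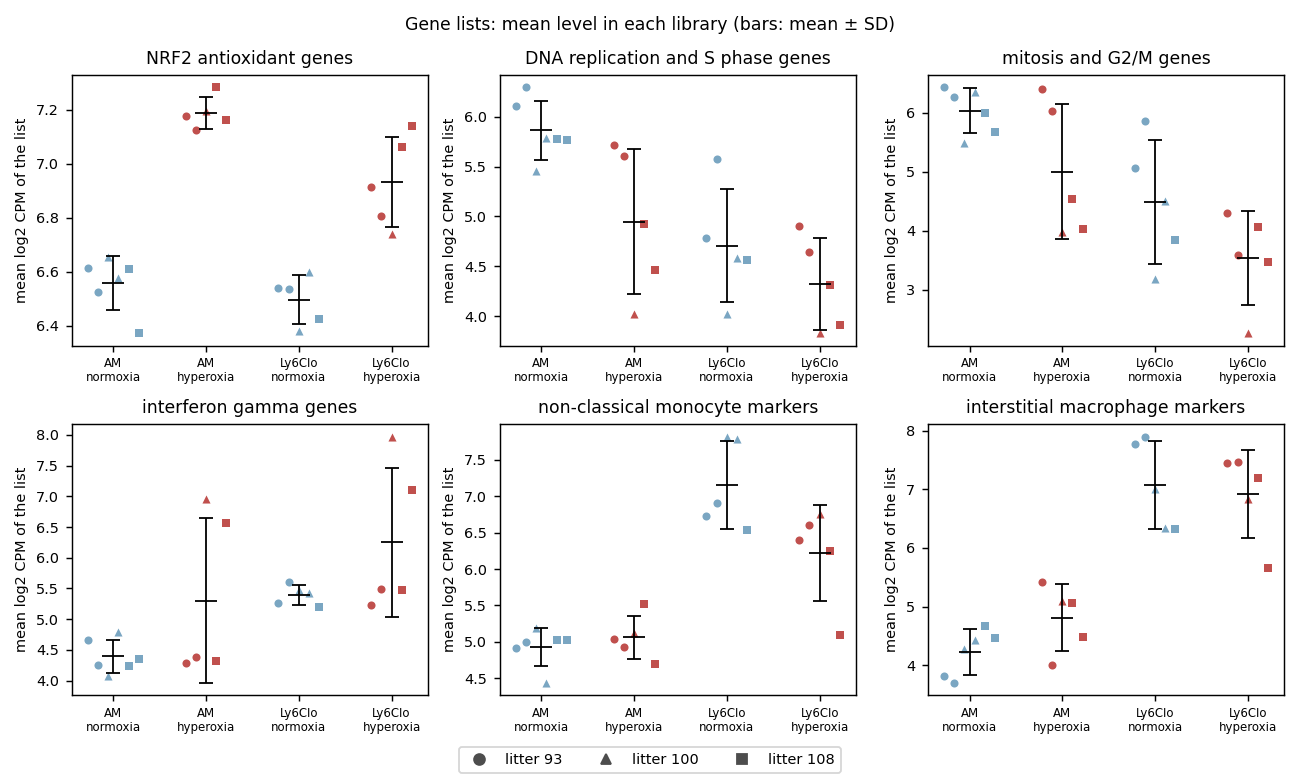
Mean log2 CPM of 6 gene lists in every library, by population and oxygen, with the litter given by the marker shape and bars for the group mean ± SD. NRF2 genes are apart in both populations, and interferon gamma genes are high in 2 hyperoxic libraries of each. Non-classical monocyte markers have a lower mean in hyperoxic than in normoxic Ly6Clo, with overlap of the groups.

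Inflammatory genes carried a pattern of single libraries. All 17 measured interferon gamma genes had estimates above 0 in both populations, with medians of 1.23 in AM and 0.82 in Ly6Clo, but Cd274 alone was called in the mean effect. The list's mean log2 CPM was 4.29, 4.38, 6.96, 4.32 and 6.57 in AM hyperoxia and 5.23, 5.49, 7.97, 5.47 and 7.10 in Ly6Clo hyperoxia, against 4.08 to 4.79 in AM normoxia and 5.20 to 5.60 in Ly6Clo normoxia. Replicates 3 and 5 of hyperoxia were thus high in both populations, and the other 3 hyperoxic libraries of each lay within the normoxic range. Without those 4 libraries the median of the mean effect went from 1.12 to 0.03, over 15 genes tested. Replicate 3 is the only hyperoxic library of litter 100 in each population, so there litter and library cannot be told apart.

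Cd274, which encodes the checkpoint ligand PD-L1, stood at 135 to 188 (median 163) CPM in AM normoxia and at 192, 232, 431, 206 and 409 CPM in AM hyperoxia. In Ly6Clo it stood at 211, 167, 210.1, 279.5 and 239.9 CPM in normoxia and at 269.5, 266, 470.5, 268 and 565 CPM in hyperoxia. The AM groups did not overlap, and the Ly6Clo groups did. It rose 1.75-fold in the mean effect (edgeR quasi-likelihood adjusted p = 0.00604), and missed the threshold without the 4 libraries, at 0.42 (adjusted p = 0.347). Of 27 NF-kB inflammatory genes 1 rose, Tnfaip2, 1.66-fold (adjusted p = 0.0265), and the list's median went from 0.53 to 0.06 without the 4 libraries. Of 25 type I interferon genes 0 were called, with medians of 0.79 in AM and 0.30 in Ly6Clo, and the median of the mean effect turned from 0.43 to -0.09 without the 4 libraries.

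Clec4d, a C-type lectin receptor for fungal and mycobacterial glycolipids, kept its call without those libraries. It stood at 37.2 to 77.6 (median 59.6) CPM in AM normoxia and at 143, 141, 322, 169.7 and 316 CPM in AM hyperoxia. Its Ly6Clo levels were 79.8, 116, 104, 92.7 and 61.5 CPM in normoxia and 130.3, 85.6, 416, 116 and 360.0 CPM in hyperoxia. The AM groups were apart, and in Ly6Clo replicates 3 and 5 of hyperoxia stood far above the rest. Clec4d rose 2.98-fold in the mean effect (edgeR quasi-likelihood adjusted p = 0.00212) and by 0.98 on the log2 scale without the 4 libraries (adjusted p = 0.0314). It was the only 1 of 22 measured C-type lectin and scavenger receptor genes that was called.

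Lysosomal and autophagy genes gave 3 calls of 32, all higher, against 0.417% called higher over all genes tested. Creg1, a secreted glycoprotein that resides in lysosomes, stood at 496 to 583 (median 541) CPM in AM normoxia and at 919, 984, 952, 768 and 965 CPM in AM hyperoxia. Ly6Clo libraries held 449, 447, 554.6, 536 and 604 CPM in normoxia and 629.9, 772, 655, 684 and 937 CPM in hyperoxia, and the groups were apart in both populations. Creg1 rose 1.55-fold in the mean effect (edgeR quasi-likelihood adjusted p = 5.64e-04), Gabarapl1, an autophagosome protein, 1.74-fold (adjusted p = 0.0265) and Atp6v1a, a subunit of the proton pump, 1.32-fold (adjusted p = 0.0405). The list's median was 0.17. Others of the 20 genes with the smallest p in the mean effect were Cd200, an inhibitory surface ligand, 1.70-fold higher (adjusted p = 0.00952), and Txnip, the thioredoxin inhibitor, 1.61-fold lower (adjusted p = 0.0122). Dst, a cytoskeletal linker, was 2.06-fold higher (adjusted p = 0.0119), Vcan, a matrix proteoglycan, 3.09-fold (adjusted p = 0.0165) and Bhlhe41, a transcription factor of AM identity, 1.74-fold (adjusted p = 0.0165). Those last 3 had their top hyperoxic value in replicate 3 of both populations, libraries of low total (551960 counts in AM and 647844 in Ly6Clo). Without the 4 libraries the log2 estimates went from 1.04 to 0.54 for Dst, 0.80 to 0.42 for Bhlhe41, 0.77 to 0.46 for Cd200 and -0.69 to -0.43 for Txnip, and none was called.

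Other pathways gave few calls, to be read beside the 0.608% called in the mean effect over all genes tested. Lipid handling had 1 of 29, Lpl, lipoprotein lipase, 1.38-fold higher (adjusted p = 0.0486, edgeR quasi-likelihood). ER stress and ATF4 genes had Atf3 higher and Shmt2 and Slc7a5, an amino acid transporter, lower, of 24. Remodelling genes had 1 of 25, the metalloproteinase Mmp19, 1.85-fold higher (adjusted p = 0.0265), and alternative activation genes had 1 of 17, the chemokine Ccl17, 7.17-fold lower (adjusted p = 0.0403). The fold of Ccl17 rests on 1, 1, 5, 1 and 0 counts in the hyperoxic Ly6Clo libraries. Its AM effect in litter 100 had the opposite sign, at 0.54 on the log2 scale. The hypoxia-inducible factor, cholesterol synthesis and oxidative phosphorylation lists had 0 calls of 24, 20 and 33 in the mean effect, with medians of -0.01, 0.10 and 0.14. Haem and iron handling had 2 of 19, Blvrb and Slc11a1, immediate early genes had 1 of 19, Atf3, classical monocyte markers 1 of 16, Vcan, and dendritic cell markers 1 of 13, Ccl17. The Toll-like receptor, metallothionein and MHC class II lists had 0 calls of 15, 9 and 8, and the MHC class II median was 0.14 in AM and -0.53 in Ly6Clo.

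The second question was where the 2 populations parted. No gene passed the test, so the following are the estimates with the smallest p, and each is given as such. Of the 10 genes with the smallest p, 8 had a difference above 0 and 2, Depdc7 and Rrp9, one below 0. Itgam and Slc11a1 were also called in AM itself, where they rose. When no filter on low counts was used, over 21598 genes, 69 genes were called in the difference, 47 higher and 22 lower, among them Itgam, Slc11a1, Lair1, Depdc7 and Arhgef10l (adjusted p from 4.59e-09 to 0.0278), whereas the other alternatives that give this contrast called 0.

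Itgam encodes CD11b, the integrin chain of complement receptor 3, which is low on mature AM. It stood at 18.4 to 50.5 (median 36.3) CPM in AM normoxia and at 68.6, 65.4, 165, 78.1 and 193 CPM in AM hyperoxia, with no overlap. The Ly6Clo level of Itgam was 141, 203, 279, 152 and 114 CPM in normoxia and 151, 128, 244, 68.9 and 266 CPM in hyperoxia, with overlap throughout. Itgam rose 3.31-fold in AM (edgeR quasi-likelihood adjusted p = 0.0437), the Ly6Clo estimate was 0.02 ± 0.32 SE on the log2 scale, and the difference was 1.71 ± 0.46 SE with a 95% interval of 0.75 to 2.66 (unadjusted p = 0.00130, adjusted p = 0.9998). The AM effect was 1.05 in litter 93, 1.77 in litter 100 and 2.15 in litter 108, and the Ly6Clo effect -0.28, 0.24 and 0.24. Of 13 measured leukocyte integrins, Itgam was the only gene called in AM.

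Slc11a1, the gene of the phagosomal metal transporter NRAMP1, followed the same layout at the level of RNA, and protein or transport was not measured. Its AM levels were 2.75 to 17.4 (median 10.4) CPM in normoxia and 20.2, 40.7, 75.6, 46.7 and 179.6 CPM in hyperoxia, without overlap. Its Ly6Clo levels were 97.6, 122, 108, 125 and 79.7 CPM in normoxia and 109, 109, 136, 98.9 and 424 CPM in hyperoxia, where replicate 5 alone was far above the rest. Slc11a1 rose 7.28-fold in AM (edgeR quasi-likelihood adjusted p = 0.0267), against 1.34-fold in Ly6Clo (adjusted p = 0.898), and the difference was 2.44 ± 0.66 SE with an interval of 1.06 to 3.83 (adjusted p = 0.9998). The AM level in hyperoxia lay below every normoxic Ly6Clo library, except in replicate 5.

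Depdc7, which encodes a DEP-domain protein, had the smallest p in the difference and opposite signs. It stood at 5.22 to 13.8 (median 10.1) CPM in AM normoxia and at 0, 4.94, 1.94, 0.898 and 3.72 CPM in AM hyperoxia, with no overlap. In Ly6Clo it stood at 13.5, 7.71, 15.5, 11.7 and 13.8 CPM in normoxia and at 33.0, 34.5, 8.22, 27.5 and 17.0 CPM in hyperoxia, with overlap. The difference was -3.00 ± 0.68 SE on the log2 scale, with an interval of -4.42 to -1.59 (unadjusted p = 1.97e-04, edgeR quasi-likelihood adjusted p = 0.9998). These levels rest on few reads, from 0 to 6 counts in the hyperoxic AM libraries.

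Lair1, an inhibitory collagen receptor, and Vav3, an exchange factor for small GTPases, had estimates of opposite sign. Lair1 stood at 71.4 to 137 (median 96.0) CPM in AM normoxia and at 145, 114, 91.2, 146 and 179 CPM in AM hyperoxia. Ly6Clo libraries held 300.2, 209, 367, 386 and 235 CPM in normoxia and 245, 240.2, 183, 206 and 123 CPM in hyperoxia, and the groups overlapped in both populations. The difference was 1.07 ± 0.31 SE for Lair1 (adjusted p = 0.9998) and 1.22 ± 0.32 SE for Vav3 (adjusted p = 0.9998, edgeR quasi-likelihood). Vav3 ranged from 21.6 to 55.7 CPM in AM normoxia, 32.1 to 93.1 in AM hyperoxia, 50.2 to 166 in Ly6Clo normoxia and 47.5 to 80.6 in Ly6Clo hyperoxia. Rrp9, of ribosomal RNA processing, had a difference of -1.26 ± 0.35 SE, with 31.1 to 68.6 CPM in AM normoxia, 17.5 to 44.6 in AM hyperoxia, 26.7 to 62.0 in Ly6Clo normoxia and 39.4 to 80.4 in Ly6Clo hyperoxia. Of the other 4, Slc35d1, a nucleotide sugar transporter, had a difference of 1.66 ± 0.46 SE. Bcl11a, a transcription factor of plasmacytoid dendritic and B cells, had 3.50 ± 1.02, D630023F18Rik had 2.81 ± 0.82 and Arhgef10l, a guanine nucleotide exchange factor, had 2.96 ± 0.86, and the AM normoxia medians of these 3 were 0.834, 1.98 and 1.09 CPM.

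**Figure D4:**
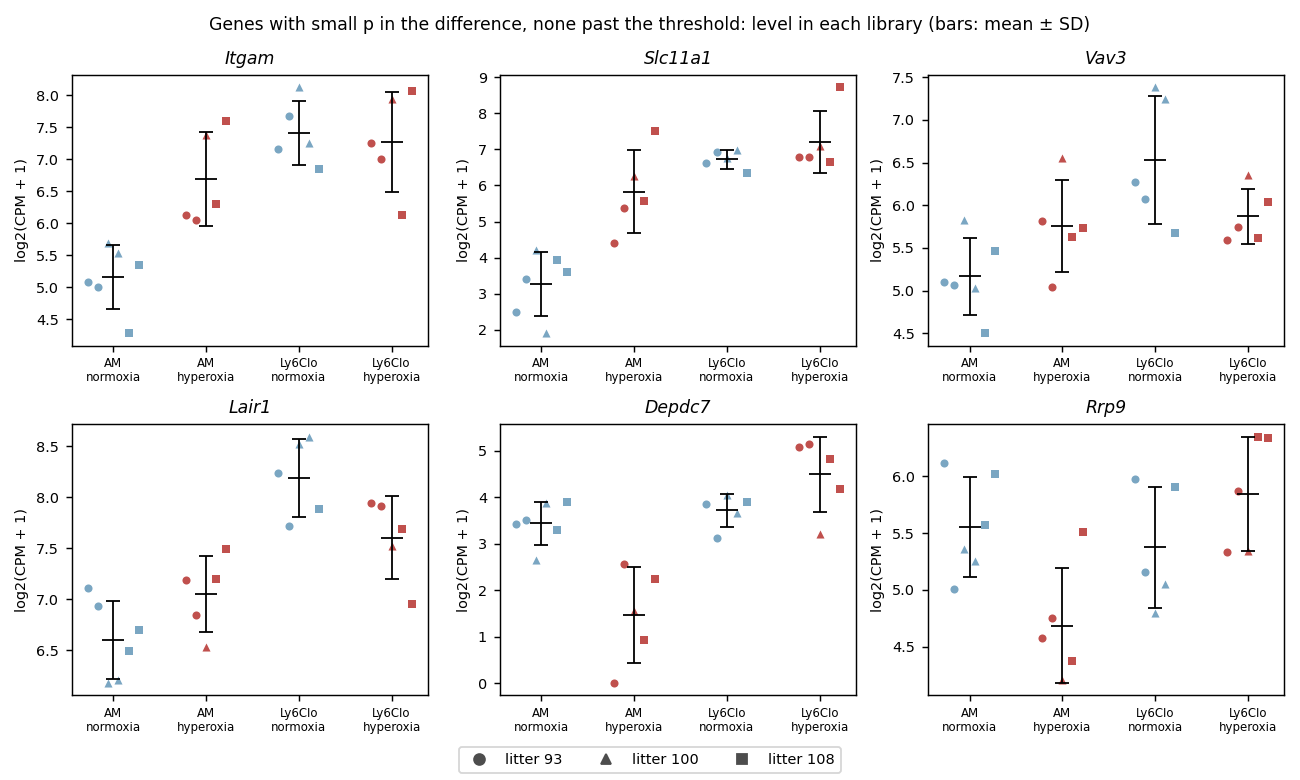
Levels of 6 of the 10 genes with the smallest p in the difference, as log2(CPM + 1) on the y axis, 1 point for each library in the 4 groups. Itgam, Slc11a1 and Depdc7 are apart in AM and overlap in Ly6Clo, and no gene of the 6 passed the test of the difference.

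Markers of non-classical monocytes and of interstitial macrophages had the highest medians above 0 in the difference among the lists tested. All 16 measured markers of non-classical monocytes, the patrolling cells of vessel walls, had a difference above 0, with a median of 0.91 against -0.01 over all genes, made of 0.32 in AM and -0.91 in Ly6Clo. In the difference 0 were called, and 7 of 16 had an unadjusted p under 0.05, against 3.17% of all genes tested. The list's mean log2 CPM was 6.73, 6.91, 7.82, 7.79 and 6.54 in Ly6Clo normoxia and 6.40, 6.60, 6.76, 6.25 and 5.09 in Ly6Clo hyperoxia. It was 4.43 to 5.19 in AM normoxia and 4.70 to 5.52 in AM hyperoxia. The Ly6Clo groups overlapped, with normoxia replicates 3 and 4, of litter 100, highest and hyperoxia replicate 5 lowest, and AM were at a lower level in both conditions. Without AM hyperoxia replicate 4 the median difference was 0.57.

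Cd300ld, an activating receptor of myeloid cells, had the smallest p of these markers. It stood at 212, 254, 374, 442 and 218 CPM in Ly6Clo normoxia and at 168, 209.8, 114, 141 and 59.2 CPM in Ly6Clo hyperoxia, without overlap. In AM it stood at 9.61 to 51.3 (median 29.5) CPM in normoxia and at 49.8, 46.9, 23.3, 48.5 and 35.3 CPM in hyperoxia, with overlap. The difference was 1.64 ± 0.49 SE (unadjusted p = 0.00307, edgeR quasi-likelihood adjusted p = 0.9998), and the Ly6Clo estimate was -1.10 ± 0.34 SE (adjusted p = 0.614). Ceacam1, an adhesion receptor, had a difference of 1.25 ± 0.41, Eno3, an enolase, 2.38 ± 0.80 and Ace, angiotensin-converting enzyme, 1.39 ± 0.54. Each had overlapping groups in both populations.

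Interstitial macrophage markers had a median difference of 0.80, with 16 of 19 above 0 and 0 called. Of these markers 3 had an unadjusted p under 0.05, against 3.17% of all genes tested. Their mean log2 CPM was 5.43, 4.00, 5.10, 5.05 and 4.49 in AM hyperoxia against 3.70 to 4.68 in AM normoxia, and 6.33 to 7.90 in Ly6Clo normoxia against 5.66 to 7.47 in Ly6Clo hyperoxia. C1qa, of complement C1, stood at 1.48 to 9.62 CPM in AM normoxia and 45.7, 2.47, 1.94, 9.88 and 9.91 CPM in AM hyperoxia, against 108 to 417 CPM in Ly6Clo normoxia, with the highest AM value in replicate 1. Without the 4 hyperoxic libraries high in interferon gamma genes the median difference was 0.85 for non-classical monocyte markers, with 16 of 16 above 0, and 0.26 for interstitial macrophage markers, with 15 of 19 above 0. The part of such cells in the AM and Ly6Clo sorts, in the effects of Itgam and Slc11a1 or in any other difference was not tested.

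Markers of cells outside the sort also differed between libraries. The summed level of 16 measured epithelial markers was 701 to 3678 CPM in AM normoxia, 327 to 2848 in AM hyperoxia, 701 to 2241 in Ly6Clo normoxia and 235 to 2371 in Ly6Clo hyperoxia. The median of the list was -1.02 in the difference and -1.39 in AM, with 16 of 16 AM estimates below 0, and 0 were called. The median of the difference turned to 0.24 without Ly6Clo hyperoxia replicate 4 and went to -2.34 without AM hyperoxia replicate 4, so its direction rests on single libraries. The median over 16 endothelial markers was -0.33 in the difference. Of the lists for neutrophils, B cells, erythroid cells and T or NK cells, 7 of 17, 5 of 11, 5 of 12 and 6 of 16 genes passed the filter on low counts, and 0 of them were called in any contrast. The part of these cells in the results was not tested. Markers of AM themselves had medians of 0.12 in AM and -0.05 in Ly6Clo, with 1 of 22, Lpl, called in the mean effect. Genes of the sort gates cannot be read as findings: Itgax, which encodes CD11c, was called higher in the mean effect (1.34-fold, adjusted p = 0.0398, edgeR quasi-likelihood), Siglecf had an estimate of -0.71 ± 0.23 SE, and Ly6c2, which shares reads with its paralog, had a difference of 1.94 ± 0.61 SE.

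**Figure D5:**
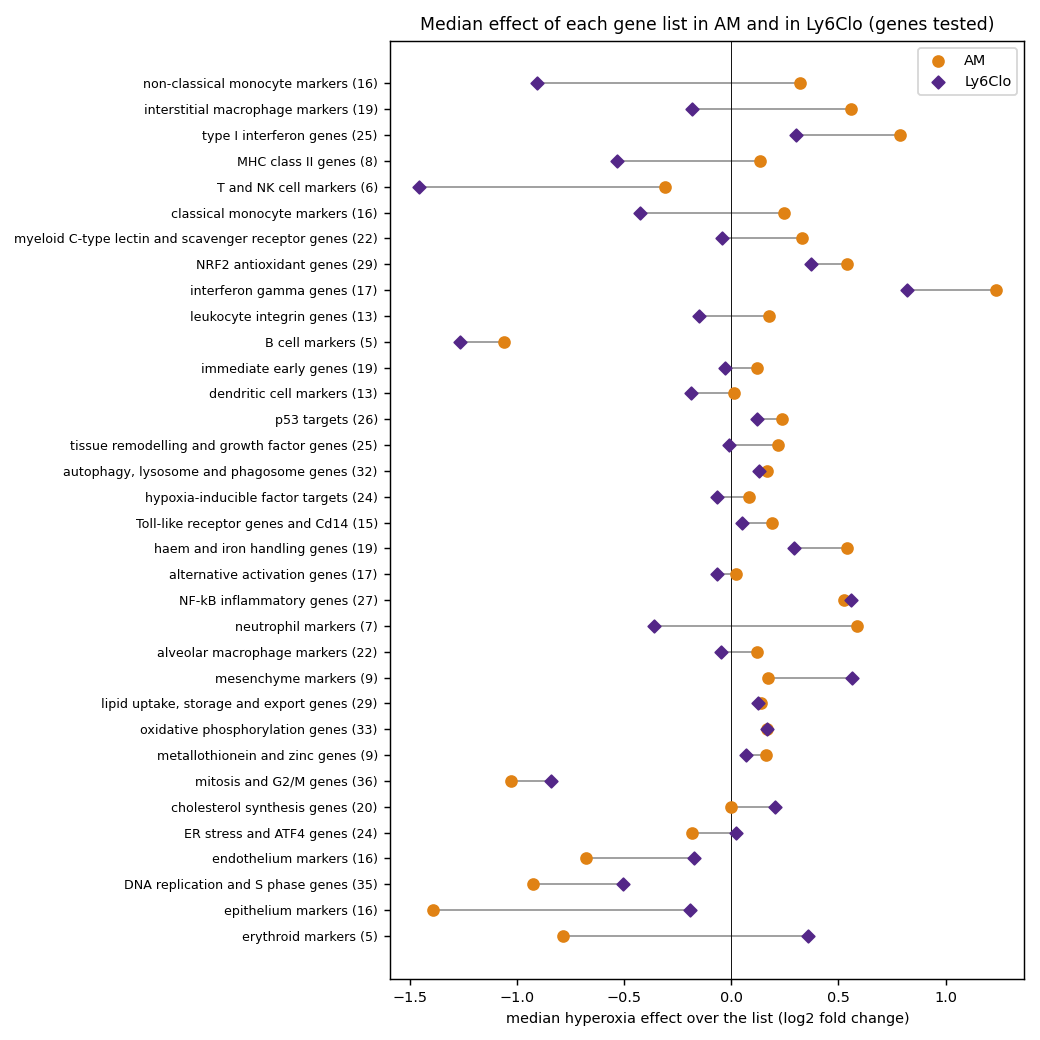
Median log2 fold change in hyperoxia against normoxia of each gene list with at least 5 genes tested, for AM (circles) and Ly6Clo (diamonds). NRF2 genes lie above 0 and S phase and mitosis genes below 0 in both populations, while non-classical monocyte markers lie above 0 in AM and below 0 in Ly6Clo.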

How the data were processed

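As deposited, the values are raw counts for each Ensembl gene, not normalized. The tools named in the submitters' processing notes are FastQC, Picard, SAMtools, TopHat and HTSeq 0.4.1, the build is NCBIM37, and the order of the tools and the annotation release are not given in the sources used here. Per the labels' protocols cDNA was amplified with SMART-Seq V4 and libraries were made with Nextera XT, without molecular identifiers. Standard errors and 95% intervals come from the fits over libraries and include the spread between them. The highest count of any gene was 3522 and no gene reached 2 counts per exonic base, so reads at 1 position may have been collapsed and changes of the most abundant transcripts compressed. Of 37991 gene identifiers, 32919 were matched to a symbol, and genes without one held 0.861% of the counts. The 22 columns of dendritic and Ly6Chi cells entered only an alternative.

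Groups followed the labelled population and oxygen condition. The 21 libraries were fitted with edgeR 4.0.16 in R 4.3.3: filterByExpr (minimum count 10, minimum total 15), TMM scaling, robust quasi-likelihood fits with litter as an additive block, and Benjamini-Hochberg adjustment over all 11025 genes. Each log2 fold change comes with its standard error (SE). Levels in the text are TMM-scaled CPM, and list scores are means of log2 CPM with a prior count of 1. Totals ran from 551960 to 1963284 counts. The scripts were tested on simulated data. Replicate numbers were given in accession order, and no fit pairs libraries by them. In each litter and oxygen condition the number of libraries with Y-linked reads was the same in AM and Ly6Clo. If both populations came from the same pups, which the labels do not state, the tests treat paired libraries as independent. A block for each litter and oxygen condition, or a correlation within them, added after seeing the data, left the difference at 0 calls.

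Members and gene lists were chosen with earlier results of these data known. Genes named are the 10 with the smallest p in the difference, the 20 with the smallest p called in the mean effect, those called in AM or Ly6Clo (at most 10 each), up to 4 per list by the difference and 2 by the mean effect, and the sort markers. Other genes are said to be chosen after their values were seen, or are listed as all of a small count. Alternatives were other scaling, tests (DESeq2 1.42.0, limma 3.58.1 voom), filters, blocks, a covariate, and libraries or litters left out. Promoters came from a RefSeq table of build GRCm38.p6 and were used for sequence only, since no genome of the files' build was used here. Plots used matplotlib 3.10.9 under Python 3.11.15. Some named items are not reported here.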

Additional observations from a re-analysis of the deposited data

Results flagged for a closer look

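Among 160 groups looked at, over 30 genes and the gene lists, 11 held a library that stood apart from the others of its group by Dixon's criterion, and chance gives about 1 in 20. In Ly6Clo hyperoxia the highest Slc11a1 library, replicate 5, was at 424 CPM with the next at 136.5, and the highest Rnf128 library, also replicate 5, at 129 CPM with the next at 49.4. Dst was highest in hyperoxia replicate 3 of both populations, at 537 CPM in AM (next 209) and 625.1 CPM in Ly6Clo (next 244). Vcan was highest in the same replicates, at 38.8 CPM in AM (next 19.2) and 37.8 CPM in Ly6Clo (next 19.3). Bhlhe41 was highest in replicate 3 of AM hyperoxia, at 454 CPM (next 241), and in replicate 3 of AM normoxia, at 313 CPM (next 183). These replicates are of litter 100. They are also libraries of low total, with 551960 counts in AM hyperoxia, 570769 in AM normoxia and 647844 in Ly6Clo hyperoxia. Replicate 4 of AM normoxia, also of litter 100, held 1415077 counts and did not stand apart for Bhlhe41. The part of depth or of litter in these values was not tested. Txnip stood apart in replicate 4 of AM hyperoxia, at 302 CPM with the next at 207. In AM normoxia the epithelial markers were lowest in replicate 2, at 3.01 mean log2 CPM with the next at 5.50, and the non-classical monocyte markers were lowest in replicate 4, at 4.43 with the next at 4.91.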

How the results depend on the processing

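The number of genes called depended on the processing. Of 1605 values of single named genes under 40 other settings 175 lost the call, 5 gained it and 0 were reversed in sign. These genes were chosen by small p in the main fit, and the settings reuse most of its libraries. Kept signs are thus favoured by the choice, and the 0 is no test of direction. In the difference 0 calls became 69 without a filter on low counts and stayed 0 in every leave-one-out fit. In the mean effect the 67 calls became 338 with DESeq2, 159 with voom and quality weights, 625 without a filter, 105 at a minimum count of 30, 187 with all 43 libraries, 12 without litter 100, 146 without litter 108, 2 with genes detected as a covariate, 0 without libraries under 1000000 counts, and, added after seeing the data, 703 with a litter-by-oxygen block, 18 with voom and correlated libraries and 7 without the 4 hyperoxic libraries high in interferon gamma genes. A litter-by-oxygen block takes the spread of the oxygen effect between litters out of the error by construction. Without the replicate block of litter the calls were 0 in the difference, 22 in the mean effect, 8 in AM and 1 in Ly6Clo. Leaving out 1 library gave 20 to 136 calls in the mean effect, 20 without Ly6Clo hyperoxia replicate 3, 21 without AM hyperoxia replicate 3, 33 and 34 without AM normoxia replicates 6 and 5, 35 without Ly6Clo hyperoxia replicate 5, 42 without Ly6Clo normoxia replicate 2, and 131 and 136 without hyperoxia replicate 4 of AM and of Ly6Clo. In AM the 13 calls became 69 with DESeq2, 53 with voom and quality weights, 362 without a filter, 27 with all 43 libraries, 0 without libraries under 1000000 counts, 1 without litter 93, 3 without litter 100, 31 without litter 108, 1 with the covariate, 141 with the litter-by-oxygen block, 8 with correlated libraries, 8 without the 4 libraries, and 7 to 18 with 1 library left out. The AM lows of 7 were without AM hyperoxia replicates 2, 3 and 5 and AM normoxia replicate 5. In Ly6Clo the 1 call became 15 with DESeq2, 0 with voom and with correlated libraries, 162 without a filter, 3 with all 43 libraries, 0 with each population fitted alone, 0 without the small libraries, 0 without litter 93 or litter 100, 16 with the litter-by-oxygen block, and 1 to 4 with 1 library left out, the highest without Ly6Clo hyperoxia replicate 4. The cause of these changes was not tested. Leaving out the small libraries removed 3 of the 5 hyperoxic AM libraries. Of 1092 list medians 1079 moved by less than the spread between libraries. Genes with few counts rest on few reads, and without the filter on low counts such genes were among those called.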
